A study of Mus musculus with 12 samples.

Results

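The cytosolic ribosome of the mouse liver was followed through the genes that encode its proteins. A gene was taken as a member when the files class it as protein coding, its symbol is that of a ribosomal protein of the large (Rpl) or small (Rps) subunit, including Rplp0, Rplp1, Rplp2 and Rpsa, and its counts summed to at least 120 over the libraries. The names gave 83 genes, and 80 of the 55401 genes counted were members, 48 of the large and 32 of the small subunit, on 19 chromosomes. The members were chosen by name and depth and not by any difference between groups. Outside the floor were Rpl10l with 0 counts and Rpl3l and Rpl39l with 10 each, paralogues known mainly from testis or muscle. The members nearest to the floor, Rpl7l1 with 20866 counts and Rpl22l1 with 35442, lay far above it.

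Ribosomal proteins are made in near-equal amounts and assembled with ribosomal RNA into the subunits that translate mRNA. Their mRNAs are short, abundant and stable, and most start with a cytosine followed by a run of pyrimidines, the TOP motif, through which mTOR signalling and the RNA-binding protein Larp1 control their translation. In the liver, ribosome number follows feeding and growth, and hepatocytes hold most of the tissue's ribosomes.

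RNA was sequenced from livers of male C57BL/6 mice in 4 groups of 3 libraries, 12 in all. FLOX mice carried floxed alleles of Lpcat3 (LPCAT3flox/flox), a gene for an acyltransferase that puts polyunsaturated fatty acids into phospholipids, and LKO mice carried the same alleles with Cre (LPCAT3flox/flox-cre). The promoter that drives Cre is not given in the sources used here. Groups marked NC received the control treatment, and groups marked HFHS a diet that the series text calls high in fat and fructose and the treatment notes describe with 30% sucrose, for 16 weeks. All mice are labelled 8 to 10 weeks old, which is less than the feeding time, so the age at sampling is not known. The floxed alleles, the sex and the strain are common to all 4 groups. Nothing in the labels says that libraries of a group came from separate mice, so the p-values reflect the spread over these libraries, which may be technical. In whole liver, fewer cells of a type and less RNA per cell cannot be told apart.

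Before the comparisons, the libraries were checked. They held 34951150 to 59205759 counts. CPM, used for levels below, are counts scaled to a common library size. Lpcat3 stood at CPM values of 49.7, 49.9 and 61.9 for FLOX-NC, 25.4, 65.0 and 19.4 for LKO-NC, 72.6, 80.6 and 75.7 for FLOX-HFHS, and 24.96, 25.9 and 29.4 for LKO-HFHS. The library labelled LKO-NC replicate 2 goes against its label, since it had the highest Lpcat3 level of both control-diet groups. It was kept as labelled, and the counts of members called are given with and without it. One ribosomal RNA gene, CT010467.1 on chromosome 17 (39846353 to 39848201, plus strand, mm10), held 99.999% of all counts assigned to ribosomal RNA genes. The members were also compared along its share of each library. The 10 hepatocyte markers were all detected in every group.

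The starts of a few members are shown because the TOP motif is read from the first bases of the mRNA. RefSeq on GRCm38.p6 gave a start for 60 of the 80 members. Each line gives the 30 bases from 10 before to 20 after the annotated start, 5′ to 3′, with capitals for a C followed by 6 or more pyrimidines (C or T) on the coding strand. Rpl14, Rps18, Rps27, Rpl28 and Rps10 were lower on the HFHS diet averaged over genotypes, Rpl15 and Rps6 were lower where the ribosomal RNA share was higher, and Rpl35a, lower on the diet, and Rps3a1, lower along the share, are shown as members without a run.
Rpl14 (chr9:120571507-120571536, plus strand): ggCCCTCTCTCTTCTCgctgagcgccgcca
Rps18 (chr17:33955646-33955675, minus strand): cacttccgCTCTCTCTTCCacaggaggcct
Rps27 (chr3:90213629-90213658, minus strand): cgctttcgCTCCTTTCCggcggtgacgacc
Rpl28 (chr7:4792955-4792984, plus strand): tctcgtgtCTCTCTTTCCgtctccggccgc
Rps10 (chr17:27635225-27635254, minus strand): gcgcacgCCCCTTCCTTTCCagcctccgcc
Rpl15 (chr14:18270967-18270996, minus strand): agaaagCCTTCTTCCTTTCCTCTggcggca
Rps6 (chr4:86857348-86857377, minus strand): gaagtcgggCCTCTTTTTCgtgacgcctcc
Rpl35a (chr16:33056443-33056472, plus strand): gcgtgcgtcccacaaggccgcgcggcgggg
Rps3a1 (chr3:86142649-86142678, minus strand): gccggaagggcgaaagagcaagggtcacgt
Such a run lay in 29 of 71 windows of members (40.8%) and in 4440 of 32851 windows of all genes (13.5%). The lines shown are a selection and do not give this share. Among members called on the averaged diet but not shown, the window of Rpl18 has a run, and those of Rpl37 and Rpsa have none. Annotated starts can lie a few bases from the start in liver, so a window without a run says only that these letters are not there.

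Levels per length differed widely among members. The highest mean FPKM (the authors' unit, scaled for transcript length and depth) over the 12 libraries were 738 for Rpl13a, 672 for Rpl35a, 658 for Rps18, 633 for Rpl26 and 632 for Rps15. The median member stood at 228 FPKM, with quartiles of 149 and 332. Lowest were Rpl7l1 at 11.8, a paralogue of Rpl7, Rps15a at 16.6, Rps20 at 53.6, Rplp2 at 57.6 and Rps3 at 82.5. The highest mean was 62.5 times the lowest. Part of this range rests on which transcript the counts were assigned to, since the mean transcript length ran from 370 to 5139 bases and the longest, 5139 bases for Rps15a, lowers its value per length. In 45 members 1 transcript took over 90% of the counts, and in 5 the leading transcript took under 50%. The order of the members was similar in all libraries, with Spearman correlations over the 80 genes of 0.739 to 0.990 between pairs of libraries and a median of 0.946. The genes share each library's depth and composition, so this is a description only.

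The paralogue pairs differed in level. Rpl7 stood at 268 FPKM and Rpl7l1 at 11.8. Rpl22, which binds RNA and has a close copy, stood at 106 and its copy Rpl22l1 at 92.4, so these were near each other. Rps27l, a target of p53 in human and mouse cells, stood at 447 and Rps27, its paralogue, at 225. Reads of members can also fall on processed pseudogenes. The 317 named pseudogenes of 62 members held 0.483% of the counts of their parents, and at most 6.98% for any parent.

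Together the 80 members took a percentage of all counts of 1.01, 2.13 and 2.68 for FLOX-NC, 2.10, 2.44 and 2.56 for LKO-NC, 0.990, 2.11 and 1.91 for FLOX-HFHS, and 1.56, 2.01 and 2.38 for LKO-HFHS. In TMM-scaled CPM their sum was 13485, 20073 and 26133 for FLOX-NC, 22202, 23945 and 24017 for LKO-NC, 15369, 20969.7 and 18295 for FLOX-HFHS, and 15581, 16727 and 16299.9 for LKO-HFHS. The group means were 19897 ± 6326 CPM for FLOX-NC, 23388 ± 1028 for LKO-NC, 18211 ± 2801 for FLOX-HFHS and 16202 ± 579 for LKO-HFHS (SD, n = 3). All 3 LKO-HFHS libraries lay below all 3 LKO-NC libraries, while the FLOX groups overlapped. Replicate 1 had the lowest sum in each of the 4 groups. The spread between replicates was widest in FLOX-NC, which held both the lowest and the highest library of the 12.

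**Figure D1:**
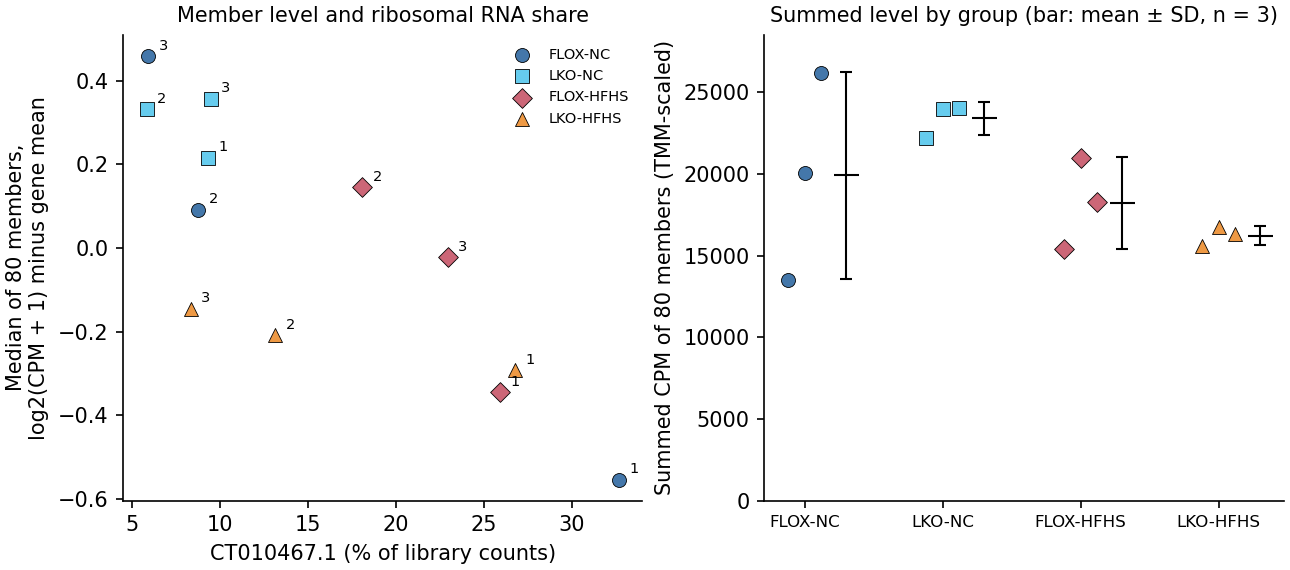
Left, median over the 80 members of log2(CPM + 1) minus each gene's mean over the libraries, against the share of CT010467.1 in percent of library counts, 1 point per library with its replicate number. Right, summed TMM-scaled CPM of the members per library, with the mean and SD of each group beside it. LKO-NC and LKO-HFHS do not overlap on the right, and FLOX-NC replicate 1, with a share of 32.7%, has the lowest member level on the left.

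The first question of the design was what the HFHS diet changed in each genotype. In LKO livers all 80 members had a fitted log2 fold change below 0 on the HFHS diet, with a median of -0.48 beside 0.05 for all 15982 genes tested. Of these, 2 members fell by the test, Rpl14 and Rpl35a, both of the large subunit, with edgeR's quasi-likelihood test and Benjamini-Hochberg adjustment over all genes at 0.05, and no member rose. Over all genes tested 3.75% were called in this comparison, 2.25% higher and 1.50% lower, so 2 of 80 members (2.5%) is close to the background. A further view is overlap: 58 of the 80 members had all 3 LKO-HFHS libraries below all 3 LKO-NC libraries, beside 13.0% of all genes tested, and none had them all above, beside 16.9%. All 80 members passed the filter on low counts, and the lowest count of a member in any library was 576.

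Rpl14 (chr9:120571444-120574654, plus strand, mm10) stood at CPM values of 184, 232 and 259.7 for FLOX-NC, 278, 251 and 259.5 for LKO-NC, 182, 201 and 167 for FLOX-HFHS, and 152, 160.0 and 143 for LKO-HFHS. Its log2 fold change with the diet was -0.79 ± 0.19 (SE) in LKO livers, adjusted p = 0.0349 with edgeR, and -0.30 ± 0.19 in FLOX livers, adjusted p = 0.445 with edgeR. The LKO groups were well apart, and in FLOX the value of replicate 1 on the control diet reached down into the HFHS range. Rpl35a, mutated in some human patients with Diamond-Blackfan anaemia (chr16:33056453-33060189, plus strand, mm10), stood at CPM values of 446, 560.1 and 543 for FLOX-NC, 545, 516 and 444 for LKO-NC, 402, 378 and 364 for FLOX-HFHS, and 347, 257 and 265 for LKO-HFHS. Its log2 fold change was -0.79 ± 0.20 in LKO livers, adjusted p = 0.0457 with edgeR, and -0.44 ± 0.20 in FLOX livers, adjusted p = 0.273 with edgeR. Here the 3 HFHS libraries lay below the 3 control-diet libraries in both genotypes.

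The lowest fitted values in LKO livers belonged to Rpsa, a small-subunit protein also studied as the laminin receptor precursor, at -0.90 ± 0.26 (adjusted p = 0.0853 with edgeR), Rpl36 at -0.88 ± 0.24 (adjusted p = 0.0697 with edgeR) and Rpl27a at -0.87 ± 0.26 (adjusted p = 0.0948 with edgeR), none of which passed the test. Nearest to 0 were Rps7 at -0.12 ± 0.35, Rps15a at -0.19 ± 0.18 and Rpl3, which lies close to the peptidyl transferase centre, at -0.20 ± 0.52. The subunits were alike, with medians of -0.49 for the large and -0.46 for the small. At an unadjusted p under 0.05 there were 33 members, beside 18.1% of all genes tested. The calls moved with single libraries. Without FLOX-NC replicate 1 there were 15 members called, beside 5.30% of all genes, and without FLOX-NC replicate 3 there were 7, beside 4.82%. Rpl14 and Rpl35a were among them in both cases. Without LKO-HFHS replicate 1 there was 1, which was neither Rpl14 nor Rpl35a, beside 1.83% of all genes. Without any 1 of the other 9 libraries, LKO-NC replicate 2 among them, there were 0, and in every case at least 77 members stayed below 0. With the replicate number as a block, 10 were called, and with DESeq2 20. With the share of CT010467.1 as a covariate 4 were called, beside 4.91% of all genes. The members' median in that fit was -0.21, with 60 of 80 below 0.

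In FLOX livers no member passed the edgeR test, beside 2.90% of all genes tested (1.60% higher and 1.31% lower). An unadjusted p under 0.05 was found for 3 members, beside 17.7% of all genes tested. DESeq2 called 1 member, beside 8.11% of all genes, and limma voom with quality weights 5, beside 18.7%. The median log2 fold change was -0.10 beside -0.0054 for all genes, with 61 of 80 below 0. In 5 members all 3 HFHS libraries lay below the control-diet libraries, beside 8.99% of all genes tested, and in none did they lie above, beside 10.6%. The lowest were Rpl36 at -0.54 ± 0.24, Rpl22l1 at -0.53 ± 0.30 and Rps18 at -0.46 ± 0.18, and the highest Rpl23a, a protein at the exit of the nascent chain, at 0.55 ± 0.35, Rps7 at 0.36 ± 0.35 and Rps27l at 0.33 ± 0.31. With the share of CT010467.1 as a covariate the median was 0.16 beside 0.05 for all genes, and 25 of 80 were below 0. In that fit 4 members were called, all higher, beside 12.8% of all genes tested. The median moved between -0.34 and 0.15 as single libraries were left out, and 0 members were called in each case, LKO-NC replicate 2 included.

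**Figure D2:**
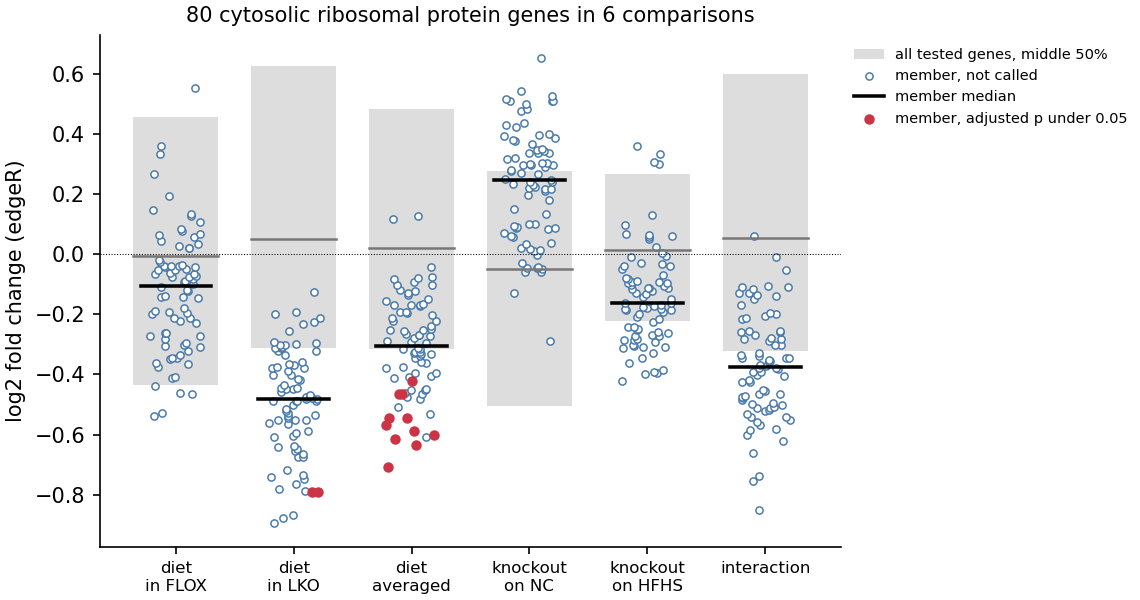
Fitted log2 fold changes of the 80 members (points) in each comparison, with their median as a black line, the median of all tested genes as a grey line and a grey band from the lower to the upper quartile of all tested genes. Filled red points passed an adjusted p of 0.05 with edgeR, which were 2 members in LKO livers and 11 with the diet averaged over genotypes.

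Averaged over genotypes, the diet comparison used all 12 libraries and had the most members called of the diet comparisons. Of the 80, 11 fell and none rose, beside 11.1% of all genes called, 6.17% higher and 4.94% lower. Large-subunit members were Rpl36, Rpl35a, Rpl28, Rpl18, Rpl14, Rpl37 and Rpl8, and small-subunit members Rpsa, Rps27, Rps18 and Rps10. Their log2 fold changes lay between -0.71 ± 0.17 for Rpl36 and -0.42 ± 0.12 for Rps10, with adjusted p between 0.0142 and 0.0465 (edgeR). The median of the 80 members was -0.30 beside 0.02 for all genes, and 78 were below 0. The exceptions were Rps7 at 0.12 ± 0.24 and Rpl23a at 0.13 ± 0.25, neither called.

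Rps18, a protein of the head of the small subunit (chr17:33951999-33956001, minus strand, mm10), stood at CPM values of 491, 562 and 560.5 for FLOX-NC, 600.5, 548 and 507 for LKO-NC, 384, 404 and 381 for FLOX-HFHS, and 399, 312 and 326 for LKO-HFHS. Each HFHS library lay below every control-diet library. Its averaged log2 fold change was -0.57 ± 0.13, adjusted p = 0.0145 with edgeR. Rpl36, of the large subunit (chr17:56613416-56614243, plus strand, mm10), stood at CPM values of 334, 375 and 321 for FLOX-NC, 397, 323 and 277 for LKO-NC, 278, 233 and 199 for FLOX-HFHS, and 244, 149 and 149.8 for LKO-HFHS. In this gene the LKO-HFHS replicates 2 and 3 were the lowest libraries of all, and LKO-NC replicate 3 and FLOX-HFHS replicate 1 were close to each other. Rpsa (chr9:120127689-120132369, plus strand, mm10) stood at CPM values of 448, 682 and 985 for FLOX-NC, 804, 828 and 848 for LKO-NC, 459, 639 and 534 for FLOX-HFHS, and 458, 469 and 407 for LKO-HFHS. The 3 LKO-NC values were near each other, whereas FLOX-NC ran from the level of a HFHS library to the highest value of the set. Rps27, a zinc-binding small-subunit protein, fell by the averaged test (-0.60 ± 0.15, adjusted p = 0.0249 with edgeR), and its paralogue Rps27l had -0.04 ± 0.22 and was not called. Rps27 stood at CPM values of 98.1, 148 and 135 for FLOX-NC, 120.5, 156 and 131 for LKO-NC, 72.3, 102 and 102 for FLOX-HFHS, and 79.2, 75.5 and 89.3 for LKO-HFHS. Rps27l stood at CPM values of 129, 222 and 325 for FLOX-NC, 268, 348 and 330.2 for LKO-NC, 200.1, 348 and 304 for FLOX-HFHS, and 201, 273 and 233 for LKO-HFHS. For Rps27 the LKO groups did not overlap and the FLOX groups did, and for Rps27l the replicate 1 libraries were the lowest of each group.

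This count of 11 rested on single libraries too. It was 28 without FLOX-NC replicate 1, 3 without FLOX-NC replicate 2, 7 without FLOX-NC replicate 3, and 3, 4 and 6 without LKO-NC replicates 1, 2 and 3. It was 5, 4 and 0 without FLOX-HFHS replicates 1, 2 and 3, and 7, 2 and 0 without LKO-HFHS replicates 1, 2 and 3. Over all genes tested, leaving out 1 library moved the share called between 6.21% and 14.0%, the latter without FLOX-NC replicate 1. Blocking on the replicate number gave 19 members, beside 18.3% of all genes. With the share of CT010467.1 as a covariate the median of the members came to -0.013 in place of -0.30. In that fit 2 members were called higher and 7 lower, 6 of them among the 11, beside 18.3% of all genes called. Without any scaling factor the median of all genes in this comparison moved to 0.12, the members' median was -0.20, and no member was called. In LKO livers alone that setting moved the median of all genes to 0.32 and the members' to -0.20, with 72 of 80 below 0.

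The diet comparisons also moved with other measures. The share of CT010467.1 in percent of counts was 32.7, 8.74 and 5.91 for FLOX-NC, 9.29, 5.81 and 9.45 for LKO-NC, 25.9, 18.1 and 22.9 for FLOX-HFHS, and 26.7, 13.1 and 8.33 for LKO-HFHS. The group means were 15.8% ± 14.7 for FLOX-NC, 8.19% ± 2.06 for LKO-NC, 22.3% ± 3.94 for FLOX-HFHS and 16.1% ± 9.56 for LKO-HFHS (SD, n = 3). The LKO groups overlapped in this share. Hepatocyte markers summed to 51459 to 103899 CPM in FLOX-NC and 76693 to 92946 in LKO-NC, and to 44866 to 58178 in FLOX-HFHS and 46063 to 46497 in LKO-HFHS. Of the 10 hepatocyte markers 6 fell with the averaged diet. Macrophage markers summed to 40.7 to 88.2 CPM in FLOX-NC and 40.6 to 67.9 in LKO-NC, and to 105 to 206 in FLOX-HFHS and 120 to 149 in LKO-HFHS, with 8 of 10 higher, and Gpnmb was at 0 in LKO-NC. The 10 lymphocyte markers summed to 1.45 to 5.82 CPM over all libraries, of 9 tested 1 rose, and Cd3e was at 0 in LKO-NC. The 8 erythroid markers summed to 88.6 to 388 CPM, and of 7 tested 1 fell. The part of these cell types in the members' difference was not tested.

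Short transcripts as a class also lay lower. Members had a median length of 848 bases and all tested genes of 2753. In LKO livers on the HFHS diet, other tested genes had a median log2 fold change of -0.18 under 600 bases, -0.20 from 600 to 1000, -0.07 from 1000 to 2000 and 0.12 over 2000. Members of the same length classes had -0.52, -0.48, -0.47 and -0.34. Members thus lay lower than other genes of each class in this comparison, which is given as a description with no test.

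The second question was what loss of Lpcat3 changed. On the control diet no member passed the edgeR test, and 0% of all genes tested did. No member had an unadjusted p under 0.05, beside 7.06% of all genes tested, and neither DESeq2 nor voom called a member. In 0 members did the groups lie apart, beside 3.98% of all genes tested with LKO-NC above and 4.58% with it below. The median log2 fold change of members was 0.25 beside -0.05 for all genes, and 70 of 80 were above 0, from -0.29 ± 0.23 for Rpl38 to 0.65 ± 0.45 for Rpl15. Much of this lay in FLOX-NC replicate 1: without it the median was 0.01, and without the 2 libraries of lowest scaling factor, FLOX-NC replicate 1 and FLOX-HFHS replicate 1, it was 0.02 with 34 of 80 below 0. Without LKO-NC replicate 2, the library that goes against its label, the median was 0.25. No member was called with any library left out, and the median then lay between 0.01 and 0.52.

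On the HFHS diet the knockout comparison also had 0 of 80 members called by edgeR, by DESeq2 and by voom. Of all genes tested edgeR called 0%. No member had an unadjusted p under 0.05, beside 3.25% of all genes tested. The median was -0.16 beside 0.01 for all genes, with 67 of 80 below 0. With any single library left out, LKO-NC replicate 2 included, edgeR called 0 members. In 17 members all LKO-HFHS libraries lay below all FLOX-HFHS libraries, beside 5.47% of all genes tested, and in none above, beside 5.90%. The lowest were Rpl13a, a protein that in human myeloid cells also leaves the ribosome to silence inflammatory mRNAs, at -0.42 ± 0.23, Rpl35a at -0.40 ± 0.20 and Rpl38, needed for skeletal patterning in the mouse, at -0.39 ± 0.23. The highest were Rpl4, which lines the exit tunnel, at 0.36 ± 0.47, Rpl10a at 0.33 ± 0.39 and Rplp0 at 0.31 ± 0.41. The sign depended on scaling: with no scaling factor the members' median was 0.26 with all genes at 0.45. The members' median thus lay below that of all genes in both. Rpl13a stood at CPM values of 645, 802 and 1065 for FLOX-NC, 869, 955 and 937 for LKO-NC, 617, 846 and 681 for FLOX-HFHS, and 563, 549 and 487 for LKO-HFHS. Its LKO-HFHS values were the lowest 3 of the set, and FLOX-NC replicate 1 lay beside FLOX-HFHS replicate 1.

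The difference between genotypes in their response to the diet was tested as an interaction. No member passed the edgeR test and 0% of all genes did, and no member was called by DESeq2 or voom. At an unadjusted p under 0.05 there was no member, beside 4.89% of all genes tested. The median was -0.37 beside 0.05 for all genes, and 79 of 80 were below 0, Rps28 at 0.06 ± 0.34 being the exception. With single libraries left out, LKO-NC replicate 2 included, 0 were called and the median lay between -0.65 and -0.20. Lowest were Rpl23a at -0.85 ± 0.49, Rps27l at -0.75 ± 0.44 and Rpl15 at -0.74 ± 0.63. The larger fall in LKO than in FLOX livers is thus not shown by a test of the difference itself, and with no scaling factor the median was -0.0089 with all genes at 0.40.

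The third question was how members follow the share of CT010467.1 between libraries of the same group. Each gene was fitted with a term for each group and a slope on the log2 share, over 16031 genes without CT010467.1 itself. Of the 80 members 42 fell with a rising share and none rose, beside 14.8% of all genes called, 5.76% higher and 9.00% lower. The median slope was -0.32 on the log2 scale for each doubling of the share, beside 0.02 for all genes, and 75 members were below 0. By subunit 24 of 48 large and 18 of 32 small members were called.

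**Figure D3:**
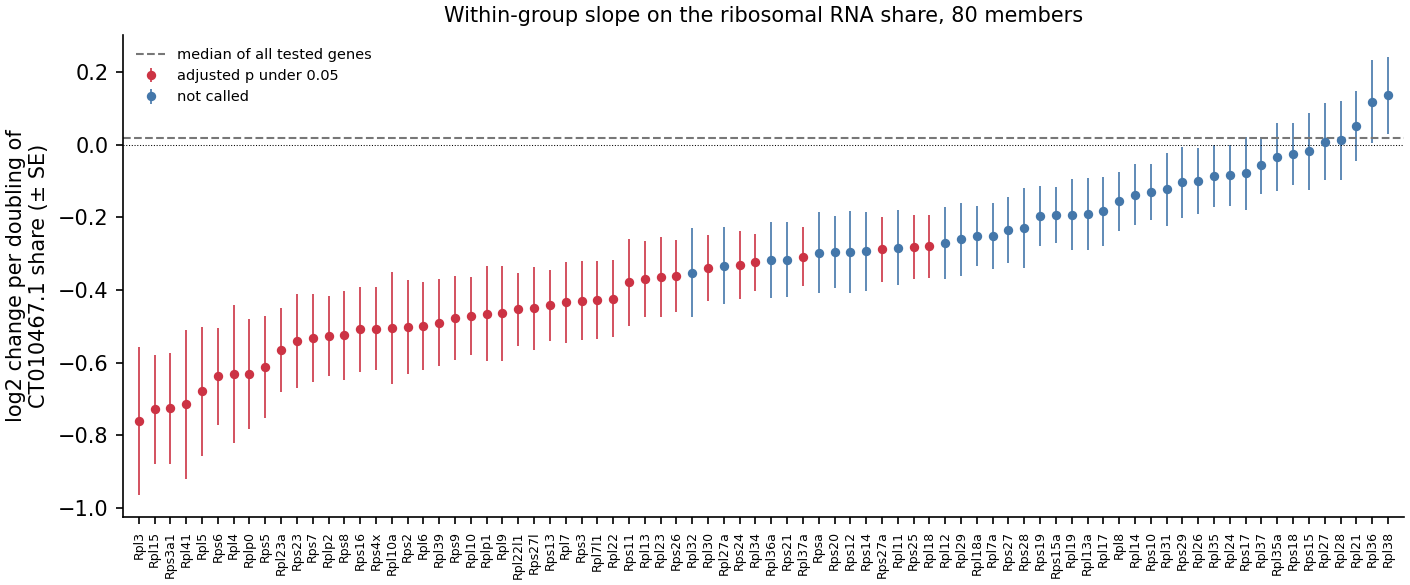
Slope of each member on the log2 share of CT010467.1 within groups, with its SE, ordered from lowest to highest. Red points passed an adjusted p of 0.05 with edgeR, 42 of 80, and they reach from Rpl3 at -0.76 to Rpl18 at -0.28. Blue points at the right, such as Rpl38, lie near or above 0.

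The steepest slopes were those of 5 members. Rpl3 had -0.76 ± 0.20 (SE, adjusted p = 0.0333 with edgeR), Rpl15 -0.73 ± 0.15, Rps3a1 -0.73 ± 0.15, Rpl41, the shortest ribosomal protein, -0.71 ± 0.21, and Rpl5 -0.68 ± 0.18. The stalk proteins that recruit translation factors were all called, Rplp0 at -0.63 ± 0.15, Rplp1 at -0.47 ± 0.13 and Rplp2 at -0.53 ± 0.11. Rpl5 and Rpl11 travel together with a small ribosomal RNA and, when free, bind Mdm2. Of this pair Rpl5 was called and Rpl11 was not, at -0.28 ± 0.10 (adjusted p = 0.0783 with edgeR). Rps6, the substrate of the S6 kinases, had -0.64 ± 0.13, Rpl10, which joins late in subunit maturation, -0.47 ± 0.11, and Rps27a, made as a fusion to ubiquitin, -0.29 ± 0.09, all called. Highest were Rpl38 at 0.14 ± 0.11, Rpl36 at 0.12 ± 0.11 and Rpl21 at 0.05 ± 0.10, none called.

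Rpl3 (chr15:80077791-80091868, minus strand, mm10) stood at CPM values of 54.5, 88.7 and 222 for FLOX-NC, 103, 172 and 217 for LKO-NC, 60.1, 158 and 130.2 for FLOX-HFHS, and 75.7, 186 and 167 for LKO-HFHS. In every group the replicate 1 library was the lowest. Rps6 (chr4:86854660-86857412, minus strand, mm10) stood at CPM values of 122, 251 and 474 for FLOX-NC, 337, 422 and 446 for LKO-NC, 213, 390.4 and 321 for FLOX-HFHS, and 219, 347 and 302 for LKO-HFHS. It showed the same order, with replicate 1 lowest in each group and FLOX-NC replicate 3, whose CT010467.1 share was 5.91%, the highest of all. LKO-NC did not follow the share in these genes. Its replicate 3 had the highest share of the group, 9.45%, and the group's highest value of both Rpl3 and Rps6. Rpl38 (chr11:114668524-114672331, plus strand, mm10) stood at CPM values of 206, 223 and 163 for FLOX-NC, 194, 163 and 128 for LKO-NC, 177, 137 and 152 for FLOX-HFHS, and 149.6, 99.2 and 106 for LKO-HFHS. Here replicate 1 was the highest library in 3 of the 4 groups, the reverse of Rpl3. Rplp0, the base of the stalk, stood at CPM values of 72.6, 150.2 and 278 for FLOX-NC, 163, 221 and 289 for LKO-NC, 100.2, 182 and 155 for FLOX-HFHS, and 132, 219 and 190.0 for LKO-HFHS. It too was lowest in replicate 1 of each group, and its groups overlapped.

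**Figure D4:**
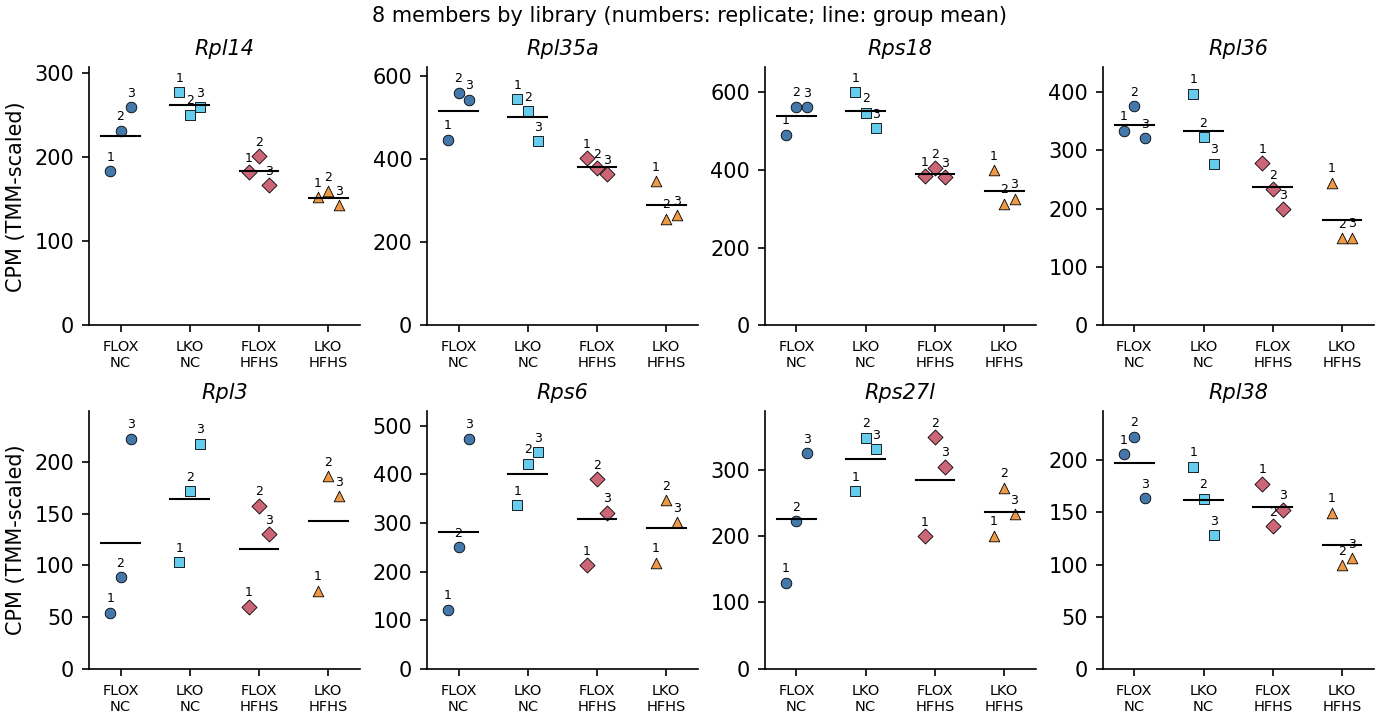
TMM-scaled CPM of 8 members in the 12 libraries, with replicate numbers and a line at each group mean. Rpl14, Rpl35a, Rps18 and Rpl36 lie lower in the HFHS groups, and in Rpl3, Rps6 and Rps27l the replicate 1 libraries are the lowest of their group.

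The slope calls rested on few libraries. Without FLOX-NC replicate 1, which had a share of 32.7%, and again without FLOX-NC replicate 3, no member was called, and without LKO-HFHS replicate 1 there were 9. Leaving out any 1 of the other 9 libraries gave 28 to 44, beside 8.73% to 18.2% of all genes tested. Without LKO-NC replicate 2 there were 32, beside 8.79%. With the replicate number as a block 0 were called, with all 80 members below 0 and a median of -0.25. The share also moved with other measures of the libraries. FLOX-NC replicate 1 had 8.17% of the members' counts on transcripts annotated as retained introns, beside 1.78% to 4.51% in the others, and the mitochondrial share of counts ran from 14.0% to 36.8%, highest in FLOX-HFHS replicate 1. The part of these in the slope was not tested. Other tested genes had median slopes of 0.09 under 600 bases, -0.20 from 600 to 1000, -0.13 from 1000 to 2000 and 0.08 over 2000, and members -0.23, -0.35, -0.36 and -0.36.

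Other genes of the translation apparatus were counted in lists, to be read against all genes tested, of which 6.17% were called higher and 4.94% lower with the averaged diet, and 5.76% higher and 9.00% lower on the slope. The slope calls of all lists rest on the same libraries as those of the members: over all genes 2366 were called, but 8 with the replicate block, 3 without FLOX-NC replicate 1, 7 without FLOX-NC replicate 3, 335 without LKO-HFHS replicate 1 and 0 without the 4 libraries numbered 1. Of 18 mRNAs of other genes known to carry a TOP motif, such as those of elongation factors, 1 fell with the averaged diet, Eef1d at -0.49 ± 0.14, which is near the share of all genes called lower, and 7 fell on the slope. The 78 tested proteins of the mitochondrial ribosome, encoded in the nucleus, had 4 lower with the averaged diet and, on the slope, 2 higher and 33 lower. Their median on the slope was -0.36, against -0.32 for the cytosolic members and 0.02 for all genes. In LKO livers their diet median was -0.30 with 70 of 78 below 0, and none was called.

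Of 39 genes for factors that build ribosomes, 4 fell with the averaged diet and none rose, beside 4.94% of all genes called lower and 6.17% higher. These were Gnl3, a nucleolar GTPase, at -0.77 ± 0.16, Nop16 at -0.81 ± 0.22, Bop1, which processes large-subunit RNA, at -0.60 ± 0.17, and Nolc1 at -0.64 ± 0.19, and on the slope 4 rose and 2 fell. Of 12 genes of RNA polymerase I and its factors none was called with the averaged diet, the median being -0.24, and on the slope 2 rose and 1 fell. Of 25 genes of mTOR signalling and TOP control, 2 rose with the averaged diet, Rragd, a Rag GTPase, at 3.0 ± 0.48 and Ddit4, an inhibitor of mTORC1, at 1.05 ± 0.26. One fell, Eif4ebp2, a translational repressor, at -0.46 ± 0.14, so the list's share of calls was near that of all genes, 11.1%. In LKO livers alone Rragd was the only gene of that list called by edgeR, and on the slope 2 rose and 2 fell.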

How the data were processed

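The members and gene lists were chosen with earlier results of these data known. Tools named in the submitters' processing notes are HISAT2, StringTie, cutadapt, edgeR and FastQC, with build mm10 and no roles or versions. The labels name a stranded mRNA kit and a further library kit. The deposited gene table holds whole-number estimated counts, judged from the values to be unnormalized, and each gene count equals the sum of its transcript counts. The authors also deposited values that counts and lengths show to be FPKM, used for levels between genes and as 1 alternative on log2(value + 0.1). Plain counts had been planned for, and the same test was kept. Of the columns, 0 were without a sample.

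Counts were scaled with TMM and genes kept with filterByExpr, which left 15982. One edgeR 4.0.16 (R 4.3.3) quasi-likelihood fit with a term per group and 8 residual degrees of freedom gave all contrasts, with Benjamini-Hochberg adjustment over all genes and calls at 0.05. The slope fit added the log2 share of CT010467.1 (7 degrees of freedom, 16031 genes). SE is the size of the log2 fold change over the root of F. Both fits were tested on simulated data, with the changed genes drawn from all tested genes. At a log2 change of 1, edgeR called 1 of 95 changed genes for the diet in LKO livers and 4 of 97 in FLOX livers. For the averaged diet it called 31 of 95, and at a slope of 0.5 it called 1 of 98. Most changes of these sizes were thus missed. How many would be missed among the members was not tested. Alternatives were DESeq2 1.42.0, limma 3.58.1 (voom), other scalings, filters, libraries left out, a replicate block, the share as covariate and summed pseudogenes. A fit without the 2 libraries whose scaling factors were lowest was added after seeing the data. With depths of 34951150 counts or more, counting error is small beside the spread between libraries.

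Deviations from group means of same-numbered libraries correlated at 0.482, 0.239 and 0.174 (numbers 1, 2 and 3) in the LKO diet comparison. In the knockout comparison on HFHS they correlated at 0.438, 0.363 and 0.167, so all were over 0.1, the limit set for pairing. In the other comparisons number 2 lay below 0.1 (-0.05 in each). The labels do not state that numbers pair libraries, and the main fit was unpaired. With the replicate number as a block, 10 members were called in the LKO diet comparison, and 7.00% of all genes. In the main fit these were 2 members and 3.75%. Replicates of a group were not copies (chi-square per gene at least 85.5). Named genes are called members, the 3 highest and 3 lowest per comparison, the 5 highest and lowest by FPKM, listed roles and paralogues, and up to 3 genes of smallest p per other list. Nolc1 was named in addition after its value was seen. Marker lists cover hepatocytes, macrophages, lymphocytes and erythroid cells. Amino acid sequences are not used here.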

Additional observations from a re-analysis of the deposited data

How the results depend on the processing

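Results were recomputed under 27 settings. In the diet comparison of LKO livers, 2 members were called, beside 0 with no scaling factor, with no filter or with FPKM, 4 with the share of CT010467.1 as a covariate, 10 with the replicate block, 13 with the 6 libraries compared alone, 20 with DESeq2, 35 with voom, 20 without FLOX-NC replicate 1 and FLOX-HFHS replicate 1 (the lowest scaling factors, a setting chosen after seeing the data), and 0 to 15 with each library left out. With the diet averaged, 11 were called (11.1%). There were 0 with no scaling factor (7.91%) or FPKM (8.17%), 4 with no filter (6.17%) and 18 without the 4 libraries numbered 1 (13.9%). The replicate block gave 19 (18.3%), DESeq2 21 (18.1%) and voom 32 (30.5%). Without those 2 libraries there were 25 (15.1%), and with each library left out 0 to 28 (6.21% to 14.0%). The members' median for the averaged diet was -0.013 with the covariate. In FLOX livers 0 were called (2.90%). There were 1 with DESeq2 (8.11%) and 5 with voom (18.7%), all lower, and 4 with the covariate (12.8%), all higher. On the slope 42 were called (14.8%). There were 0 with no scaling factor (0.281%), with the replicate block (0.0499%), without the 4 libraries numbered 1 (0%) or without those 2 (0.0359%). FPKM gave 64 (21.6%), and with each library left out there were 0 to 44 (0.0179% to 18.2%). The knockout median on HFHS was 0.26 with no scaling factor and 0.31 with FPKM, and the interaction median -0.0089 with no scaling factor. The slope of Rps27a became 0.017 without the 4 libraries numbered 1. For single members, 879 values stayed on their side of the threshold, 510 lost their call and 1 changed sign. No paired fit changed a call in the knockout comparisons, where 0 were called either way. The causes were not tested. Each member had at least 576 counts in every library, and whether depth limits the calls was not tested.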
